A study of Homo sapiens with 3 samples.

Results

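The Ikaros family and cereblon were described by the 6 genes IKZF1, IKZF2, IKZF3, IKZF4, IKZF5 and CRBN, of 19775 genes named on the array. Their members were all probe sets with a single gene symbol equal to one of these names, which gave 23 probe sets of 41091 with a single symbol. IKZF1 had 9, IKZF4 had 4, IKZF2 and IKZF3 had 3 each, and IKZF5 and CRBN had 2 each. A probe set is a group of short probes that reports 1 signal for a transcript.

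The study used KMS11, an established human multiple myeloma line that carries the t(4;14) translocation, by which the histone methyltransferase gene MMSET, now named NSD2, comes under immunoglobulin enhancers. Cells were infected with lentivirus carrying a short hairpin RNA, received fresh medium after 24 h, and were collected for total RNA at 48 h. The control group carried a hairpin named for luciferase (shLuc), and the other groups carried shMMSET#2 or shMMSET#4, hairpins named for MMSET; the same line, polybrene infection and times were shared by all. Each group had 1 array, so differences are described by size, without a p-value.

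Ikaros proteins are zinc finger transcription factors of lymphoid cells that bind DNA through fingers near one end and pair with each other through fingers at the other end. IKZF1 encodes Ikaros, IKZF3 Aiolos, IKZF2 Helios, IKZF4 Eos and IKZF5 Pegasus. CRBN encodes cereblon, which brings substrates to a cullin 4 ubiquitin ligase; lenalidomide and related drugs bind cereblon and direct the ligase to Ikaros and Aiolos. In myeloma cells the loss of these factors under drug is known to be followed by lower IRF4 and MYC.

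On the array of each hairpin, the targeted gene itself, NSD2, read lower on its brightest probe set, with signals of 10300 (shLuc), 7032 (shMMSET#2) and 7476 (shMMSET#4). The median log2 ratio over its 6 probe sets was -1.33 with shMMSET#2 and -0.48 with shMMSET#4. All 7 plasma cell markers on the list were above the floor on every array. They ranged from CD38, with signals of 94.4 (shLuc), 129 (shMMSET#2) and 151 (shMMSET#4), to TNFRSF17, with 18258, 11771 and 21560. Of 5 T cell markers, CD3E was above the floor on every array (105, 78.2 and 76.4 in the order shLuc, shMMSET#2, shMMSET#4), CD2 was at or under it on every array, and the summed signal was 349, 163 and 301. Of 3 myeloid markers, CD14 was at or under the floor on every array and none was above it on every array, with sums of 174, 122 and 28.4. The part of these markers in the ratios below was not tested. The summed signal of the plasma cell list was 51230 (shLuc), 29608 (shMMSET#2) and 56501 (shMMSET#4). CD38 of this list was higher than shLuc on both hairpin arrays, unlike the sum with shMMSET#2. With shMMSET#4 the markers were split. SDC1 (4166 with shLuc, 3646 with shMMSET#4), XBP1 (16087 and 14115) and IRF4 (5291 and 4053) were lower, unlike the sum. TNFRSF17, CD38, PRDM1 (5403 and 6158) and MZB1 (1930 and 6817) were higher. Of 2 epithelial markers, EPCAM had signals of 8099 (shLuc), 4391 (shMMSET#2) and 10651 (shMMSET#4). The other, KRT19, was at or under the floor on every array. As a sign of RNA quality, the 3' end of ACTB read above its 5' end by 1.70 (log2) in the shLuc sample. In each MMSET hairpin sample the value was 1.14. For GAPDH the same measure was 0.04 (shLuc), 0.10 (shMMSET#2) and 0.002 (shMMSET#4), so shLuc was not the highest there. The part of these differences in the ratios below was not tested. Since RNA came from whole cultures, fewer cells with a transcript and less transcript per cell cannot be told apart.

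Signals were MAS5 values on a linear scale. Those at or under 41.3, the 40th percentile of all signals, were set to that floor, and where 1 of the signals of a ratio was floored the ratio is a lower limit, written "at least". Of the 23 probe sets, 17 were above the floor on all 3 arrays, 2 were at or under it on all, and 4 were at it on some.

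**Figure D1:**
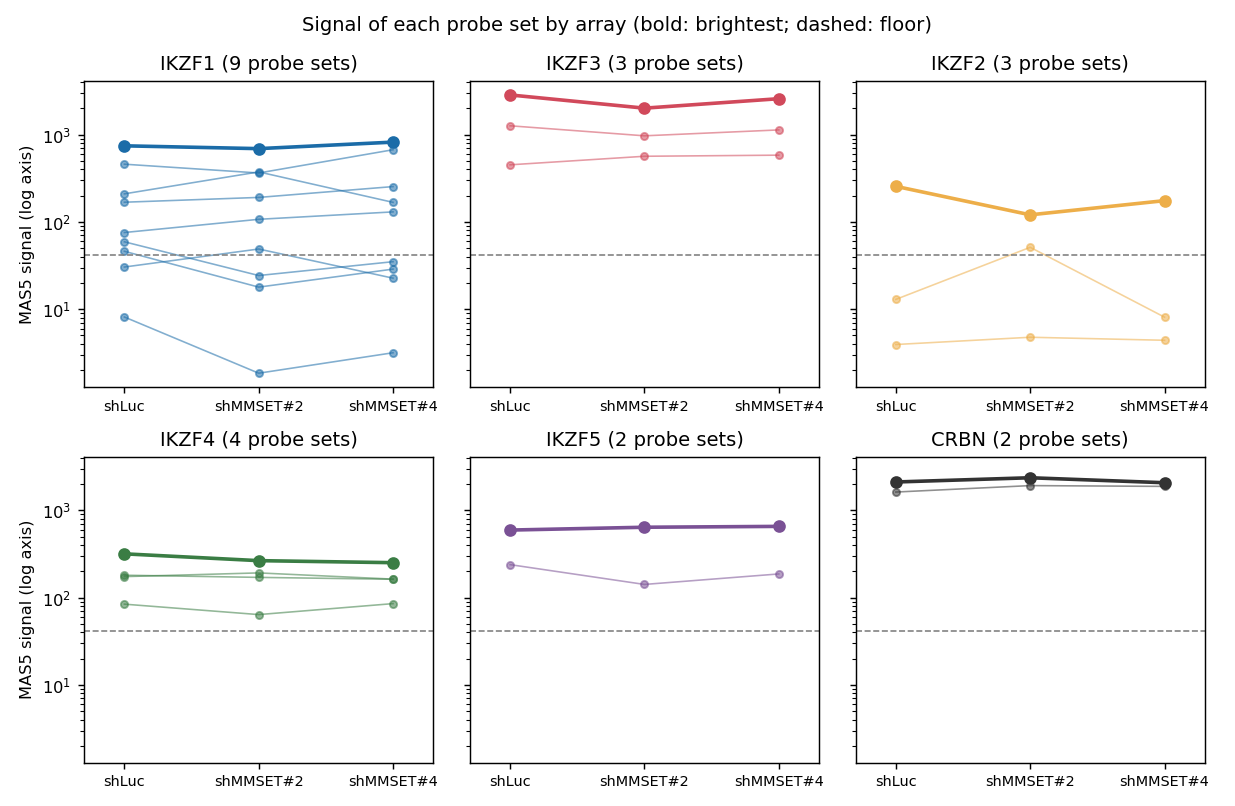
MAS5 signal (log axis) of each probe set on the shLuc, shMMSET#2 and shMMSET#4 arrays, 1 panel per gene and 1 array per group; the bold line is the brightest probe set and the dashed line the floor of 41.3. The CRBN lines are nearly flat between 1622 and 2365, and the bold IKZF2 line dips from 256 with shLuc to 121 with shMMSET#2.

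With either hairpin most Ikaros family and cereblon probe sets stayed within 1.5-fold of shLuc. With shMMSET#2, 2 of 23 were at least 1.5-fold lower, 1 for IKZF2 and 1 for IKZF5, against 16.2% of all 41091 probe sets, and 1 was at least 1.5-fold higher, for IKZF1, against 10.2%. With shMMSET#4 none of 23 was at least 1.5-fold lower, against 16.3%, and 2 were higher, both for IKZF1, against 9.9%. No member probe set passed 1.5-fold in the same direction with both hairpins, while 9.68% of all probe sets were lower and 5.06% higher with both. This count of 0 holds for the deposited scaling: with a common median signal 2 were higher with both, IKZF1 205038_at (log2 ratios of 0.82 and 1.16) and IKZF3 221092_at (0.64 and 0.75), against 11.5% of all probe sets, and after quantile normalization 1 was, 205038_at again (0.80 and 1.14), against 6.87%. The shMMSET#2 and shMMSET#4 ratios share the shLuc array. Many of the 41091 lie at the floor, so the counts were repeated over probe sets above the floor on all arrays. Of the 17 such member probe sets, the same 2 were lower and 1 higher with shMMSET#2, against 20.1% and 14.8% of 22310, and 0 were lower and 2 higher with shMMSET#4, against 20.4% and 14.4%. The median log2 ratio of these 17 was -0.08 with shMMSET#2 and -0.03 with shMMSET#4, beside -0.05 and -0.06 over the 22310. With 23 probe sets on 3 unreplicated arrays, a smaller share of calls than the background is a description of these arrays.

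The difference between the hairpin arrays among probe sets of like mean signal was the measure of spread at hand, and it also holds real differences between the hairpins. It was taken in 10 classes of mean signal. In the class of the CRBN probe sets and of the brightest IKZF3 probe set, 95% of probe sets differed by less than 2.01-fold between hairpins; in the class of the brightest IKZF1 and IKZF5 probe sets the value was 2.24-fold, and in that of IKZF2 it was 2.62-fold. Of the 17 member probe sets that passed the filter on dim signals (above the median of 1 array or more), 0 exceeded the spread of their own class with shMMSET#2 and 0 with shMMSET#4. The share of all 25458 filtered probe sets past their class spread against shLuc was not taken, so whether 0 is few cannot be said. The differences of these 17 given below are inside that spread. So were those of the targeted gene NSD2 on its brightest probe set, 1.46-fold (shMMSET#2) and 1.38-fold (shMMSET#4) lower, in the brightest class, with a spread of 1.87-fold. A place inside the spread therefore does not show that a gene was unchanged.

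**Figure D2:**
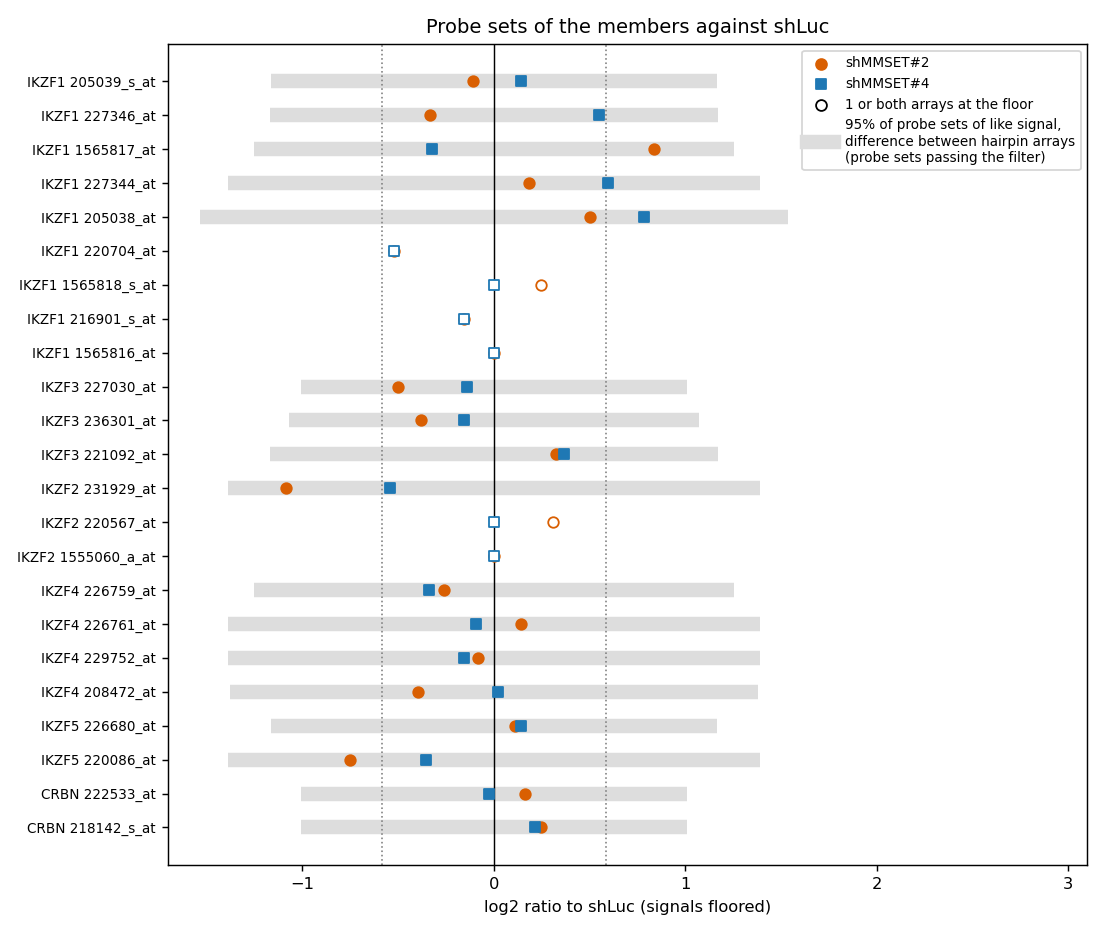
Log2 ratio to shLuc of each of the 23 probe sets, for shMMSET#2 (circles) and shMMSET#4 (squares), with open symbols where 1 or both arrays are at the floor, dotted lines at 1.5-fold, and grey bars for the range holding 95% of probe sets of like signal in the difference between the hairpin arrays (drawn for the 17 members that pass the filter). All filled symbols lie within their grey bars, and the lowest is IKZF2 231929_at at -1.08 with shMMSET#2.

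Under the deposited scaling CRBN, the drug receptor, was close to its control level on both probe sets. Probe set 222533_at had signals of 2115 (shLuc), 2365 (shMMSET#2) and 2074 (shMMSET#4), that is, 1.12-fold higher and 1.02-fold lower than shLuc. Probe set 218142_s_at had signals of 1622, 1923 and 1883 in that order, 1.19-fold and 1.16-fold higher. The shMMSET#2 array was the highest on both, and the shMMSET#4 array was the lowest on the first and intermediate on the second. Both probe sets read a little higher with shMMSET#2 than with shMMSET#4, by 1.14-fold and 1.02-fold. With a common median signal the log2 ratios to shLuc (shMMSET#2, then shMMSET#4) were 0.48 and 0.35 on 222533_at. On 218142_s_at they were 0.56 and 0.59, past 1.5-fold with shMMSET#4. After quantile normalization they were 0.09 and -0.08 on 222533_at, and 0.20 and 0.18 on 218142_s_at.

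IKZF1 (Ikaros) differed little on its brightest probe set, 205039_s_at, with signals of 745 (shLuc), 692 (shMMSET#2) and 822 (shMMSET#4). This is 1.08-fold lower and 1.10-fold higher than shLuc. The other measured probe sets of IKZF1 did not move alike. Probe set 227346_at read 459, 364 and 672, and 227344_at read 168, 191 and 254. The third, 205038_at, read 75.7, 107 and 130. On these 3 the shMMSET#4 array was the highest, by 1.46-fold, 1.51-fold and 1.72-fold over shLuc, as it was on 205039_s_at. Against them stood 1565817_at, with signals of 210 (shLuc), 375 (shMMSET#2) and 168 (shMMSET#4), so shMMSET#2 was 1.78-fold above and shMMSET#4 1.25-fold below shLuc. The array order of this probe set is thus the reverse of the other 4 between the hairpins. The remaining 4 IKZF1 probe sets were at or under the floor on at least 2 arrays. Of these, 220704_at (signal 59.2 with shLuc) lay at least 1.43-fold below shLuc on both hairpin arrays and 216901_s_at (46.1 with shLuc) at least 1.12-fold. Probe set 1565818_s_at was above the floor only with shMMSET#2, at 49.0, and 1565816_at was on no array.

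IKZF3 (Aiolos) had 3 probe sets, all above the floor on every array. The brightest, 227030_at, read 2853 (shLuc), 2013 (shMMSET#2) and 2584 (shMMSET#4), or 1.42-fold and 1.10-fold lower than shLuc. Probe set 236301_at gave the same order with 1264, 971 and 1134, or 1.30-fold and 1.12-fold lower. The dimmest, 221092_at, went the other way, with 452, 566 and 583, or 1.25-fold and 1.29-fold higher than shLuc. So 2 of 3 probe sets were lowest with shMMSET#2 and 1 was lowest with shLuc, and all 3 were higher with shMMSET#4 than with shMMSET#2, by 1.28-fold, 1.17-fold and 1.03-fold.

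IKZF2 (Helios) was measured on every array by 1 of its 3 probe sets. On 231929_at the signals were 256 (shLuc), 121 (shMMSET#2) and 175 (shMMSET#4), or 2.12-fold and 1.46-fold lower than shLuc. Under the deposited scaling this was the largest difference from shLuc among the 23 probe sets, but IKZF1 205038_at with shMMSET#4 and 1565817_at with shMMSET#2 differed more under a common median (1.16 and 1.15, against -0.77) and quantile normalization (1.14 and 1.01, against -0.88). It is inside the 2.62-fold spread of its signal class. Probe set 220567_at was above the floor with shMMSET#2 only, at 51.2, so it was at least 1.24-fold higher with that hairpin, and 1555060_a_at was at or under the floor on all 3 arrays. The lower IKZF2 signal therefore rests on 1 probe set.

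IKZF4 (Eos) had 4 probe sets above the floor, none past 1.5-fold. The brightest, 226759_at, read 318 (shLuc), 265 (shMMSET#2) and 252 (shMMSET#4), or 1.20-fold and 1.26-fold lower. The log2 ratios of the other 3 spanned -0.40 to 0.14 (shMMSET#2) and -0.15 to 0.02 (shMMSET#4). With each hairpin 3 of the 4 probe sets were lower than shLuc and 1 was higher, but not the same one.

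IKZF5 (Pegasus), the most distant relative of Ikaros in this family, had a pair of probe sets that disagreed. The brighter, 226680_at, read 595 (shLuc), 641 (shMMSET#2) and 656 (shMMSET#4), or 1.08-fold and 1.10-fold higher. The dimmer, 220086_at, read 239, 142 and 187, or 1.69-fold and 1.28-fold lower. Both hairpin arrays lay on the same side of shLuc within each probe set, and on opposite sides between the probe sets.

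Set directly against each other, the hairpin arrays differed by at least 1.5-fold on 2 of the 23 probe sets, both of IKZF1. Probe set 227346_at was 1.85-fold higher with shMMSET#4, against 9.66% of all probe sets at least 1.5-fold higher, and 1565817_at was 2.23-fold lower with shMMSET#4, against 9.77% lower. Among the 17 probe sets above the floor, the shMMSET#2 array gave the lowest signal on 7, and shLuc and shMMSET#4 on 5 each. The shMMSET#4 array gave the highest signal on 7, shLuc on 6 and shMMSET#2 on 4. The same split over all probe sets above the floor was not taken, so these counts are not a result about the members. The median log2 ratio of shMMSET#4 to shMMSET#2 over the 17 was 0.22, beside -0.03 over all 22310 probe sets above the floor.

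**Figure D3:**
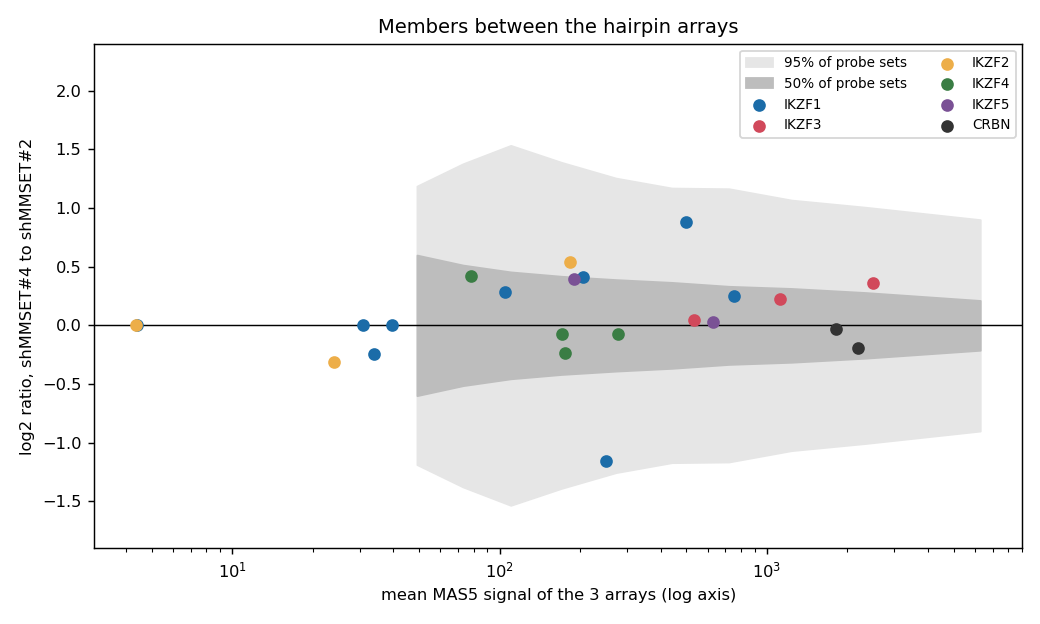
Log2 ratio of shMMSET#4 to shMMSET#2 (y) against the mean signal of the 3 arrays (x, log axis) for the 23 probe sets, coloured by gene, over bands that hold 50% and 95% of the filtered probe sets in each of 10 signal classes. The IKZF1 points at 0.89 and -1.16 lie farthest from 0, and the CRBN points at -0.19 and -0.03 lie near it.

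How low a ratio reads depends on the scaling. The deposited arrays have the same trimmed mean, but the median signal was 77.4 (shLuc), 62.0 (shMMSET#2) and 59.5 (shMMSET#4). Scaling every array to the same median raised the median log2 ratio of the 25458 probe sets that pass the filter from -0.05 to 0.24 for shMMSET#2 and from -0.06 to 0.29 for shMMSET#4. With it the sign of 5 of the 12 ratios of the brightest member probe sets changed. IKZF1 with shMMSET#2 went from -0.11 to 0.21, IKZF3 with shMMSET#4 from -0.14 to 0.24, and CRBN with shMMSET#4 from -0.03 to 0.35. IKZF4 went from -0.26 to 0.06 for shMMSET#2 and from -0.34 to 0.04 for shMMSET#4. IKZF2 kept its sign, at -0.77 with shMMSET#2 and -0.16 with shMMSET#4. Relative to the median of all probe sets, 11 of the 12 kept their sign under the deposited scaling, the same median and quantile normalization. IKZF3 with shMMSET#2 was then -0.45, -0.42 and -0.58, and IKZF2 with shMMSET#2 lay between -1.03 and -0.90. The exception was CRBN with shMMSET#4, at 0.03, 0.06 and -0.11.

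**Figure D4:**
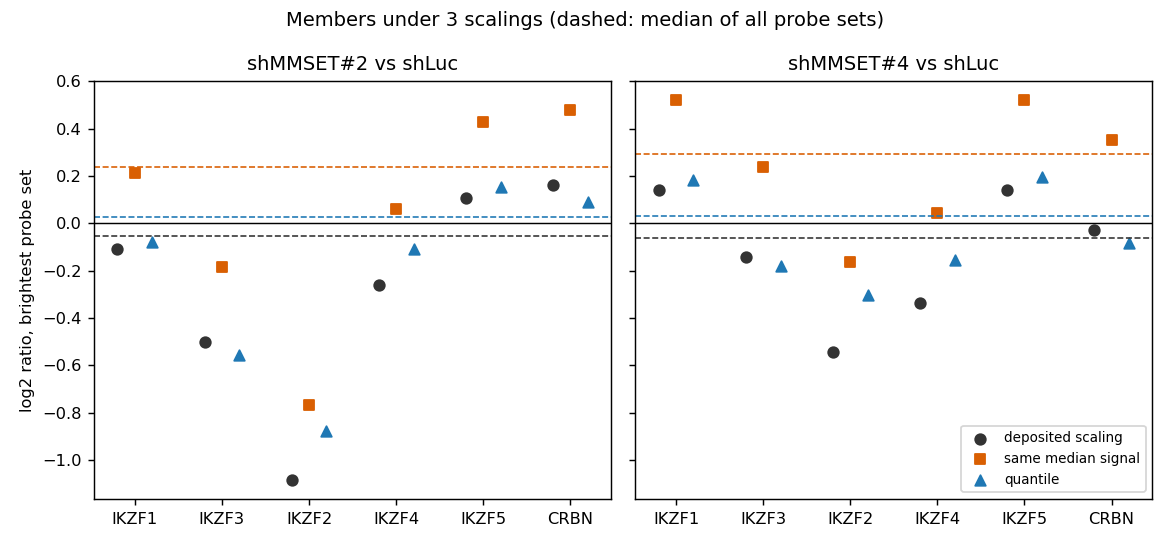
Log2 ratio to shLuc of the brightest probe set of each gene under the deposited scaling, a common median signal and quantile normalization, with shMMSET#2 on the left and shMMSET#4 on the right; dashed lines are the medians of all filtered probe sets under each scaling. With a common median signal all members and the dashed lines lie higher than in the deposited scaling, whereas with quantile normalization IKZF3 and CRBN lie lower although the dashed lines lie higher. IKZF2 lies lowest in both panels under all 3 scalings.

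The genes around the family were taken from 6 lists with 69 genes in all, of which 59 were tested, each by its brightest probe set. With shMMSET#2, 6 of the 59 (10.2%) were at least 1.5-fold lower and 11 (18.6%) higher, against 22.5% and 16.2% of 13296 tested genes. With shMMSET#4, 5 (8.47%) were lower and 13 (22%) higher, against 20.6% and 17.3%. With both hairpins 2 were lower and 9 higher (3.39% and 15.3%), against 11.9% and 8.6%.

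Among the ligase and neddylation genes, 10 of 11 did not pass 1.5-fold with both hairpins. DDB1, the adaptor to which cereblon binds, had signals of 2874 (shLuc), 4648 (shMMSET#2) and 3219 (shMMSET#4), or 1.62-fold and 1.12-fold higher. RBX1, the ring finger subunit that recruits the conjugating enzyme, read 10519, 14860 and 12917, or 1.41-fold and 1.23-fold higher. For the cullin scaffold CUL4B shMMSET#2 lay 1.08-fold above and shMMSET#4 1.21-fold below shLuc. CUL4A, the other scaffold, was the member past 1.5-fold with both, with 1484, 3696 and 3830, or 2.49-fold and 2.58-fold higher; over its 4 probe sets the log2 ratios spanned -0.64 to 1.59 (shMMSET#2) and -1.24 to 1.75 (shMMSET#4). The list median was 0.45 with shMMSET#2 and 0.14 with shMMSET#4, beside -0.04 and -0.02 over all tested genes.

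The COP9 signalosome removes NEDD8 from cullins. Of its 9 subunit genes, 3 passed 1.5-fold upward with both hairpins, 0 downward, and 6 passed with at most 1 hairpin. COPS2 was 1.74-fold and 1.92-fold higher and COPS4 1.78-fold and 1.57-fold, each by its brightest probe set. GPS1 had log2 ratios of 3.16 and 3.45, from a shLuc signal of 52.4 that is close to the floor. This signal is under the shLuc array median of 77.4. GPS1 thus passed the filter only through the hairpin arrays, where it was high (468 with shMMSET#2 and 575 with shMMSET#4). Its call is counted among the 3 here and the 9 pathway genes higher with both hairpins, and lends those counts no support. The COP9 list median was 0.31 with shMMSET#2 and 0.49 with shMMSET#4.

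Of 12 tested genes for other proteins that drug-bound cereblon can mark for degradation, 0 passed 1.5-fold with both hairpins. Their median log2 ratio was 0.16 with shMMSET#2 and -0.08 with shMMSET#4, the latter 0.30 with a common median signal. Of 4 native substrates and partners of cereblon, GLUL, glutamine synthetase, was 1.79-fold and 1.59-fold lower and PRKAA1, a catalytic subunit of AMP-activated kinase, 3.44-fold and 1.79-fold higher, each by its brightest probe set. The 4 GLUL probe sets spanned -0.84 to 0.04 (shMMSET#2) and -0.67 to 0.76 (shMMSET#4), and the 5 PRKAA1 probe sets -0.25 to 1.78 and -0.99 to 0.85.

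Ikaros represses genes with chromatin complexes, chiefly NuRD and SIN3. Of 17 corepressor genes, 14 passed 1.5-fold with at most 1 hairpin, 3 were higher with both and 0 were lower with both. The 3 were RBBP4, a histone-binding subunit (3.72-fold and 3.94-fold), MBD2, a methyl-DNA-binding protein (2.37-fold and 2.52-fold), and the scaffold SIN3A (2.46-fold and 2.01-fold). Each of RBBP4 and MBD2 has 1 probe set past 1.5-fold in the other direction with at least 1 hairpin, of 6 and 4 probe sets. The list median was 0.21 with shMMSET#2 and 0.04 with shMMSET#4.

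The lymphoid genes that Ikaros proteins regulate include the myeloma factors IRF4 and MYC. IRF4 had signals of 5291 (shLuc), 1853 (shMMSET#2) and 4053 (shMMSET#4), and MYC had 9616, 2979 and 7547. With shMMSET#2 IRF4 was thus 2.86-fold and MYC 3.23-fold lower. On the same array IKZF1 was 1.08-fold lower, IKZF3 1.42-fold lower and CRBN 1.12-fold higher, each on its brightest probe set. The arrays read RNA and not protein, and a link between these values was not tested. With shMMSET#4 IRF4 was 1.31-fold and MYC 1.27-fold lower, log2 ratios of -0.38 and -0.35 that a common median signal would turn to 0.00 and 0.03. The 3 IRF4 probe sets spanned -1.79 to 0.00 (shMMSET#2) and -1.09 to 0.00 (shMMSET#4). The upper end of exactly 0 arises where a probe set was at or under the floor on both arrays compared, so it is not a measured lack of change. BLNK, a B cell receptor adaptor, was lower with both hairpins (3.63-fold and 1.91-fold; signals of 410, 113 and 215), and CDK6, a cell cycle kinase, was higher with both (1.65-fold and 1.73-fold). Of the 12 genes 6 were tested; the others, among them the recombinase genes RAG1 and RAG2, did not pass the filter. The list median over the 6 was -0.61 with shMMSET#2 and -0.28 with shMMSET#4, and with a common median signal the latter became 0.10. With that scaling BLNK (-1.54 and -0.55) and GLUL (-0.52 and -0.29) no longer passed 1.5-fold with both hairpins, and the 9 genes higher with both still did, as they did after quantile normalization. The number higher with both grew to 18 of 59 (30.5%) with a common median, RBX1 (0.82 and 0.68) among them, against 12 (20.3%) after quantile normalization. The background grew too. Over all 41091 probe sets the share higher with both was 5.06% in the deposited scaling, 11.5% with a common median and 6.87% after quantile normalization. The shares over tested genes were not taken for these 2 scalings.

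**Figure D5:**
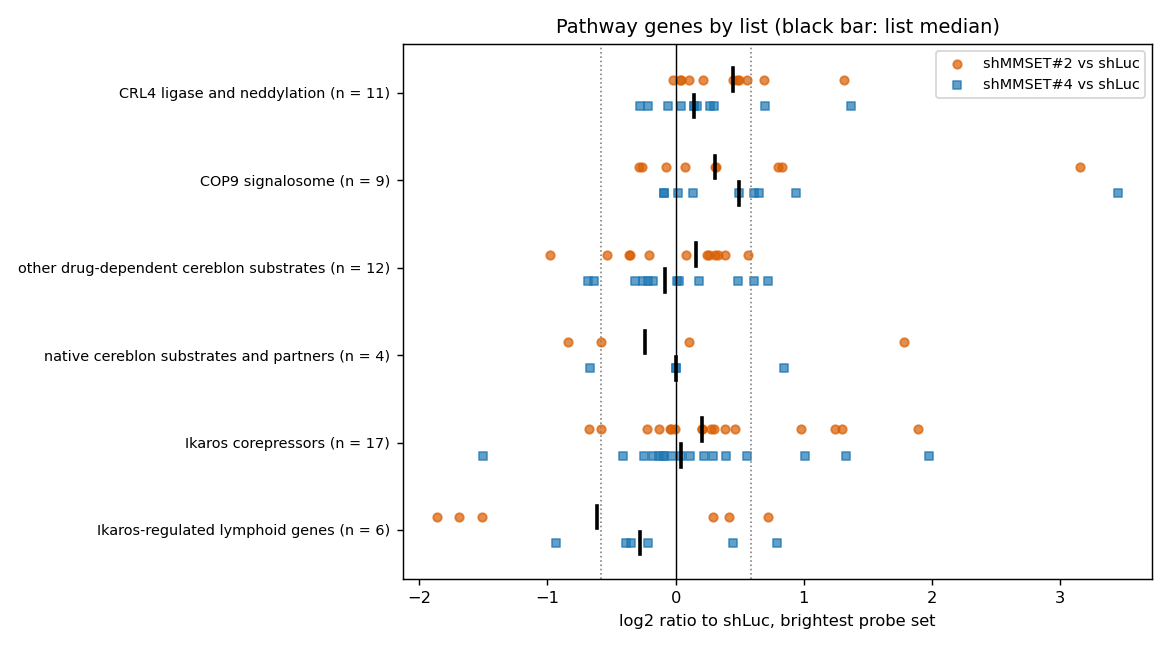
Log2 ratio to shLuc of the brightest probe set of each of the 59 tested pathway genes, by list, for shMMSET#2 (circles) and shMMSET#4 (squares), with black bars at the list medians and dotted lines at 1.5-fold. The drug-dependent cereblon substrates lie around 0, and GPS1 stands apart at 3.16 and 3.45.

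The genes whose pair of ratios lay closest to that of each member were found among 11634 others above the floor on every array, by Euclidean distance over the log2 ratios of the 3 arrays. They were GRK2 and DVL3 for IKZF1, DOK6 and VEZT for IKZF3, and MEX3C and PRF1 for IKZF2. For IKZF4 they were WASF3 and PCYOX1L, for IKZF5 GART and FZD1, and for CRBN ACTR6 and DRAM1. With 3 arrays such likeness is common: from 38 genes for IKZF2 to 265 for CRBN lay within a distance of 0.1.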

How the data were processed

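The deposited values are MAS5 intensities, a linear signal for every probe set; the authors had scaled them, as the 2% trimmed mean was 500.1 for all 3 arrays. Per the submitters' processing notes the tool was MAS5, and the design text adds GeneSpring; settings are not given in the sources used here. That text also says HG-U133 A, but all 54675 identifiers belong to HG-U133 Plus 2.0. Names came from the platform annotation, brought up to date through Entrez identifiers for 41043 probe sets. Signals were floored and log2-transformed with no rescaling. A gene or probe set was tested (passed the filter) where its signal exceeded the median of 1 array or more. The probe set brightest on average stood for its gene. Calls were by size, at 1.5-fold. Having 3 arrays limits the precision.

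All 6 members, NSD2, IRF4, MYC, DDB1, CUL4A, CUL4B and RBX1 were named, with up to 5 genes per list past 1.5-fold with both hairpins and the 2 genes closest to each member. Other names were chosen after their values were seen. Members and lists were chosen with earlier results of these data known. The steps were tested on simulated data. Software was Python 3.11.15 (numpy 2.4.6, pandas 2.3.3), scipy 1.17.1 and, for plots, matplotlib 3.10.9.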

Additional observations from a re-analysis of the deposited data

How the results depend on the processing

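No paired analysis was possible because each group has 1 array, all numbered replicate 1. For member probe sets with shMMSET#2 (2 lower and 1 higher), the counts became 1 and 3 with a common median signal, 1 and 2 with quantile normalization, 5 and 3 with no floor, 1 and 0 at 2-fold, and 0 and 0 at 3-fold. With shMMSET#4 (0 lower and 2 higher), 5 were higher with a common median, 4 were lower with no floor, 1 was higher with a floor at the 60th percentile, and 0 were higher at 2-fold or 3-fold. Between the hairpins (1 lower and 1 higher with shMMSET#4), 2 were higher with a common median, 3 lower and 3 higher with no floor, 0 higher at 2-fold, and 0 either way at 3-fold. The filter at the array median, chosen after seeing the data, left these counts as they were.

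With a common median signal the log2 ratios of the brightest probe sets moved to -0.18 (IKZF3) and 0.48 (CRBN) with shMMSET#2, and to 0.52 (IKZF1), 0.24 (IKZF3), 0.52 (IKZF5) and 0.35 (CRBN) with shMMSET#4, because this scaling raises all ratios. With _x_at and _s_at probe sets left out, IKZF1 was represented by 227346_at, at 0.55 with shMMSET#4. As means over all probe sets, the log2 ratios with shMMSET#2 were -0.19 for IKZF3, -0.26 for IKZF2, no longer past 1.5-fold, and -0.32 for IKZF5.

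Of the 59 pathway genes, 27 were higher with shMMSET#2 under a common median, and 1 was lower and 22 higher with shMMSET#4. At 2-fold 3 were lower and 6 higher with shMMSET#2, and 1 lower and 5 higher with shMMSET#4. The 2-fold shares of all tested genes were 10.6% lower and 5.69% higher with shMMSET#2, and 8.94% and 6.73% with shMMSET#4. With a floor at the 60th percentile 3 pathway genes were lower with shMMSET#4, and as means over probe sets 6 were higher with each hairpin. Apart from 2-fold, the shares of all tested genes under these settings were not taken. The median log2 ratio of the member probe sets, 0.00 with each hairpin, became 0.21 (shMMSET#2) and 0.23 (shMMSET#4) with a common median, and -0.14 with shMMSET#4 with no floor. Signals near the floor limit IKZF2, which has 1 probe set above it on every array.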

Other observations

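Among the pathway genes, several passed 1.5-fold with 1 hairpin only; these were chosen after their values were seen. ZBTB39, which encodes a zinc finger protein, lay 1.97-fold (shMMSET#2) and 1.25-fold (shMMSET#4) below shLuc. PATZ1, of the same class, lay 1.29-fold below shLuc for shMMSET#2 and 1.65-fold above it for shMMSET#4. MTA2, a NuRD subunit, had signals of 117 with shLuc and 162 with shMMSET#2 and was at least 2.83-fold lower with shMMSET#4, where it was at the floor. MTA3, its relative, was 1.97-fold and 1.47-fold higher on its brightest probe set. The log2 ratios of its 2 probe sets were -0.74 and 0.98 with shMMSET#2, in opposite directions, and 0.46 and 0.56 with shMMSET#4. On its brightest probe set CSNK1A1, the kinase that lenalidomide-bound cereblon marks for degradation, passed with neither (1.24-fold and 1.14-fold higher). Nor did GSPT1, a translation termination factor, on its brightest (1.06-fold and 1.02-fold higher). Other probe sets of both genes did pass. The log2 ratios of the 13 CSNK1A1 probe sets spanned -0.54 to 0.97 (shMMSET#2) and -1.11 to 0.19 (shMMSET#4). Those of the 6 GSPT1 probe sets spanned -0.47 to 1.11 and -0.45 to 0.71. Whether the hairpins differ at these genes was not tested, since each has 1 array.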
